A study of Mus musculus with 8 samples.

Results

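WT aTreg cells were compared with WT rTreg cells by RNA sequencing, using 4 of the 8 libraries of a mouse study of the transcription factor Foxp1 in regulatory T (Treg) cells. Both populations came from spleen and peripheral lymph nodes of C57BL/6 mice aged 6 to 8 weeks that carried a Foxp3-YFP-Cre knock-in, which marks Treg cells with YFP and Cre; these mice, with intact Foxp1, are called WT although they carry the knock-in allele. The rTreg (resting) cells were sorted as CD4+YFP+ cells low for CD44, and the aTreg (activated) cells as CD4+YFP+ cells high for CD44, each gated on a further surface marker as well, with 2 libraries each. The other 4 libraries are the same 2 populations from Foxp1fl/fl Foxp3-YFP-Cre mice (Foxp1 cKO), in which Foxp1 is deleted in Foxp3-expressing cells; they entered the same fit and are used at the end. Whether a library came from 1 mouse or from pooled mice was not given in the sources used here, so the p-values measure the spread between these libraries.

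Treg cells restrain other immune cells and depend on the transcription factor Foxp3. Resting Treg cells recirculate through lymph nodes, which they enter with the help of CCR7 and leave through the receptor S1P1. Activated Treg cells lose these molecules, gain receptors for inflamed and barrier tissues, and make effector molecules such as the cytokine IL-10. The comparison addresses which genes distinguish these states when both come from the same lymphoid organs.

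The WT libraries held between 8863453 and 15268623 counts. Of 27594 genes listed, 14540 passed a filter on low counts and were tested by quasi-likelihood in edgeR; adjusted p below means the Benjamini-Hochberg adjusted p of that test over all 14540 genes. A gene is called when the adjusted p is under 0.05 and the fitted change is at least 2-fold. CPM is a count scaled to the library's size with its TMM factor, and each log2 change is aTreg minus rTreg with a standard error (SE). The SE was worked back from the test, as the absolute log2 change divided by the square root of its F statistic. It is an approximation and can fail for genes with no counts in a population. Under this rule 1382 genes (9.5% of those tested) rose in aTreg cells and 411 (2.83%) fell. These shares are the measure for the counts of the gene lists below. The lists were chosen with earlier results of these data known, so their counts are a description and no test of a group. All 1382 genes called higher were above rTreg in both replicate pairs, and 404 of the 411 called lower were below in both. The CPM of the 2 populations did not overlap for 8271 of all genes tested (56.9%). Lack of overlap is therefore common here and is given below only as a description. A gene enters the tested set if it is expressed in only one of the populations, and 319 of the genes called higher had at most 3 counts in each rTreg library. The increases were the larger changes, with a median log2 change of 2.43 against -1.48 for the genes called lower and -0.0046 for all genes tested. When the genes with no count in one population (76 of those higher, 10 of those lower) were set at the bound that a floor of 3 counts per library allows, the medians were 2.25 and -1.46. Of the genes called higher, 568 reached a mean of 10 CPM in aTreg cells, and 176 of those called lower did so in rTreg cells.

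**Figure D1:**
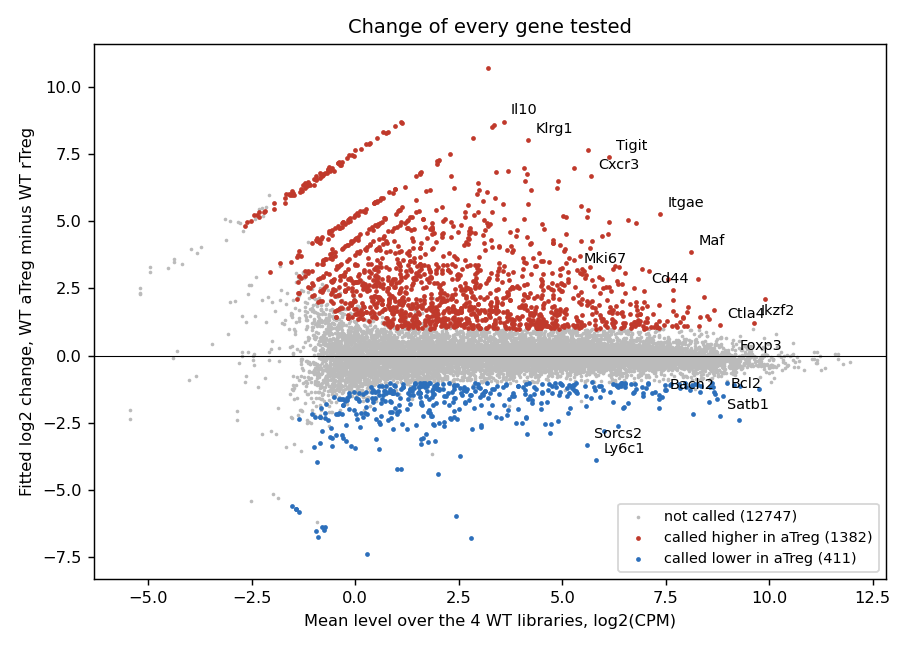
Fitted log2 change of WT aTreg against WT rTreg cells for the genes tested with a count in any WT library (vertical axis), against the mean level over the 4 WT libraries as log2(CPM) (horizontal axis, a log scale). Red points are the 1382 genes called higher and blue points the 411 called lower; the increases reach further from 0 than the decreases, and the diagonal rows of red points at the left are genes with no or few counts in rTreg cells.

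Both rTreg libraries of replicate 1 stand apart, which touches the genes called lower. Transcripts of photoreceptor and other eye genes were found in WT rTreg replicate 1 and in the Foxp1 cKO rTreg library with the same replicate number. The summed level of 35 such genes was 132 and 33.9 CPM in WT rTreg cells and 25.9 and 23.7 CPM in WT aTreg cells. Of the 25 members tested, 14 are among the 411 genes called lower, which leaves 397. Where both of these rTreg libraries were left out, 0 eye genes were called lower by the same edgeR test, and the number of genes called lower was 188, of which 168 are among the 411. The number called higher was then 1036, of which 977 are among the 1382. The source of these transcripts was not tested, and no eye gene is named in the groups below.

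**Figure D2:**
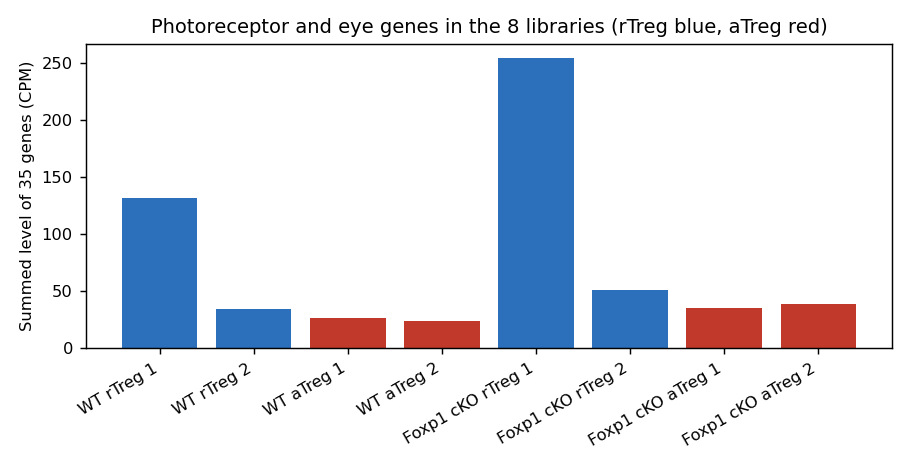
Summed level of 35 photoreceptor and eye genes (vertical axis, CPM) in each of the 8 libraries, rTreg in blue and aTreg in red. Both rTreg libraries of replicate 1 stand above the rest, at 132 CPM in WT and 254 CPM in Foxp1 cKO, while the other 6 lie between 23.7 and 50.6 CPM.

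The sort was visible in Cd44, which the gate chose and which is no finding. Cd44 (ENSMUSG00000005087, chr2:102811141-102901665 in GRCm38) was at 35.1 and 45.3 CPM in the rTreg libraries and 213 and 214 in the aTreg libraries. Foxp3 was at 492 and 646 CPM in rTreg and 530.3 and 536 in aTreg cells, and these ranges overlapped (log2 change -0.08 ± 0.08 SE, adjusted p = 0.51). Il2ra, the high-affinity IL-2 receptor chain, was at 623 and 576 CPM in rTreg and 518 and 412 CPM in aTreg cells, a small change that lay under the 2-fold threshold (log2 change -0.38 ± 0.06 SE, adjusted p = 0.0029). Foxp1 itself was at 353 and 384 CPM in rTreg and 234 and 230.3 CPM in aTreg cells (log2 change -0.67 ± 0.09 SE, adjusted p = 0.0014). In bulk libraries a smaller share of cells with a transcript and less of it per cell cannot be told apart, and this holds for every value below.

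Among 23 genes of Treg identity, all tested, 10 were called higher and 2 lower, with a median log2 change of 0.57. The shares were 43.5% and 8.70%, against 9.5% and 2.83% of all genes tested. Itgae, the integrin chain CD103 that binds epithelial E-cadherin, was at 7.55 and 9.27 CPM in rTreg and 275 and 369.7 in aTreg cells (log2 change 5.26 ± 0.11 SE, adjusted p = 1.1e-06). Every aTreg value lay far above both rTreg values. Ikzf2, which encodes Helios, rose from 466 and 479.7 to 1209 and 1010.2 CPM (log2 change 1.23 ± 0.08 SE, adjusted p = 3.4e-05). Ctla4, which removes costimulatory ligands from antigen-presenting cells, rose from 353 and 197 to 844 and 395 CPM (log2 change 1.13 ± 0.08 SE, adjusted p = 4.5e-05). Replicate 1 was the higher in both populations, and the Ctla4 call was lost without the replicate block (adjusted p = 0.20). The 2 genes that fell were Gpr83, an orphan receptor of Treg cells (log2 change -1.20 ± 0.18 SE, adjusted p = 0.0019), and Ecm1, a secreted matrix protein (log2 change -1.63 ± 0.09 SE, adjusted p = 1.9e-05). The Gpr83 change was under 2-fold without WT aTreg replicate 1 (log2 change -0.87). Izumo1r, Il2rb and Lrrc32 were highly expressed in both populations and not called, with log2 changes of 0.72, 0.04 and -0.10.

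Of 29 transcription factors of effector and lineage programs, 23 were called higher (79.3%, against 9.5% of all genes tested) and 0 lower (against 2.83%). The list was chosen with earlier results of these data known, and its median log2 change was 2.35. For 0 lower calls, edgeR gave 2 members below 0 at an unadjusted p under 0.05, and limma-voom and DESeq2 also called 0. Maf, which takes part in Il10 transcription (ENSMUSG00000055435, chr8:115682942-115707794 in GRCm38), was at 32.5 and 39.8 CPM in rTreg and 564 and 473 CPM in aTreg cells (log2 change 3.84 ± 0.13 SE, adjusted p = 3.6e-06). Tox2, an HMG-box factor, was nearly absent in rTreg cells at 0.461 and 0.471 CPM and reached 116 and 78.7 CPM in aTreg cells (log2 change 7.65 ± 0.32 SE, adjusted p = 6.9e-06). Both factors separated the 4 libraries without overlap. Of the factors that define helper T cell subsets, Tbx21 (T-bet, type 1) was at 0.553 and 0.864 CPM in rTreg and 18.5 and 14.2 CPM in aTreg cells. Gata3 (type 2) was expressed in both, at 124 and 93.9 CPM in rTreg and 249 and 186 CPM in aTreg cells, and its change lay at the edge of the 2-fold threshold (log2 change 1.00 ± 0.07 SE, adjusted p = 4.6e-05), with the call made under 7 of the alternatives. Pparg, the factor of fat tissue Treg cells, had 0 counts in both rTreg libraries and 20 and 14 counts in the aTreg libraries, which is at least 6.05-fold higher against a floor of 3 counts per library. Bhlhe40 had 37.4 and 9.82 CPM in rTreg and 349.8 and 92.1 CPM in aTreg cells, with replicate 1 the higher in both populations (log2 change 3.21 ± 0.16 SE, adjusted p = 1.4e-05), and its call was lost without the replicate block (adjusted p = 0.058). Prdm1, Rora, Batf and Irf4, named here after their values were seen, also rose, with log2 changes of 2.47 ± 0.16, 2.65 ± 0.14, 1.79 ± 0.18 and 1.57 ± 0.12. Stat3 and Ikzf3, with log2 changes of -0.12 and -0.53, were not called.

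Receptors and enzymes of tissue trafficking gave some of the widest separations. Of 26 chemokine receptors with roles in tissue entry, 22 were tested. Of these, 16 were called higher (72.7%, against 9.5% of all genes tested) and 0 lower (against 2.83%), with a median log2 change of 3.45. limma-voom and DESeq2 also called 0 lower, and 2 members lay below 0 at an unadjusted p under 0.05 in edgeR. Cxcr3 (ENSMUSG00000050232, chrX:101731535-101734269 in GRCm38), the receptor for interferon-induced chemokines, went from 0.829 and 1.18 CPM in rTreg to 108 and 98.5 CPM in aTreg cells (log2 change 6.67 ± 0.23 SE, adjusted p = 4.2e-06). Ccr4, a skin-homing receptor, went from 5.43 and 6.44 to 88.9 and 103 CPM (log2 change 4.01 ± 0.14 SE, adjusted p = 4e-06). Receptors for monocyte attractants (Ccr2, log2 change 4.91 ± 0.29 SE, adjusted p = 2.6e-05) and for colon homing (Gpr15, log2 change 4.66 ± 0.26 SE, adjusted p = 2e-05) rose as well. Cxcr4, the receptor for CXCL12, was high in both at 211 and 104 CPM in rTreg and 264 and 115 CPM in aTreg cells, and these ranges overlapped (log2 change 0.24 ± 0.21 SE, adjusted p = 0.43). Ccr9, the gut-homing receptor, lay just under the 2-fold threshold (log2 change 0.99 ± 0.19 SE, adjusted p = 0.0062) and was called under 7 alternatives.

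Of 11 tested genes for the sugar ligands of P- and E-selectin and their carriers, a list drawn up after values were seen, 3 rose, 0 were called lower by edgeR, limma-voom or DESeq2, and 8 lay below 0, of which 4 at an unadjusted p under 0.05; the median log2 change was -0.10. Gcnt1, which starts the branch that carries these ligands, had 8 and 8 counts in the rTreg and 367 and 468 in the aTreg libraries (log2 change 5.66 ± 0.31 SE, adjusted p = 1.7e-05), and Fut7, which adds their fucose, was at 0.645 and 0.628 CPM in rTreg and 8.89 and 5.39 CPM in aTreg cells (log2 change 3.43 ± 0.36 SE, adjusted p = 0.00035). Chst2, a sulfotransferase, was at 1.75 and 1.81 CPM in rTreg and 99.6 and 71.3 CPM in aTreg cells (log2 change 5.56 ± 0.30 SE, adjusted p = 1.8e-05). These are the 3 that rose, 27.3% of those tested against 9.5% of all genes tested. Selplg, the carrier PSGL-1, was abundant in both populations and not called (log2 change -0.40 ± 0.09 SE, adjusted p = 0.01). Of 22 integrin genes tested, 8 rose and 1 fell, with a median log2 change of 0.85. The shares were 36.4% and 4.55%, against 9.5% and 2.83% of all genes tested. Itgb1, the shared beta chain of many matrix receptors, went from 76.6 and 75.3 to 589 and 502 CPM (log2 change 2.85 ± 0.15 SE, adjusted p = 1.6e-05), and Itgb8, which takes part in release of active TGF-beta, from 12.1 and 14 to 107 and 77.6 CPM (log2 change 2.80 ± 0.15 SE, adjusted p = 1.7e-05). The 1 that fell, named after its value was seen, was Itga6, the laminin receptor chain (log2 change -1.09 ± 0.07 SE, adjusted p = 2.8e-05). Itgal and Itgb7, the chains of LFA-1 and of the gut-homing integrin, were not called, with log2 changes of 0.81 and -0.32.

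**Figure D3:**
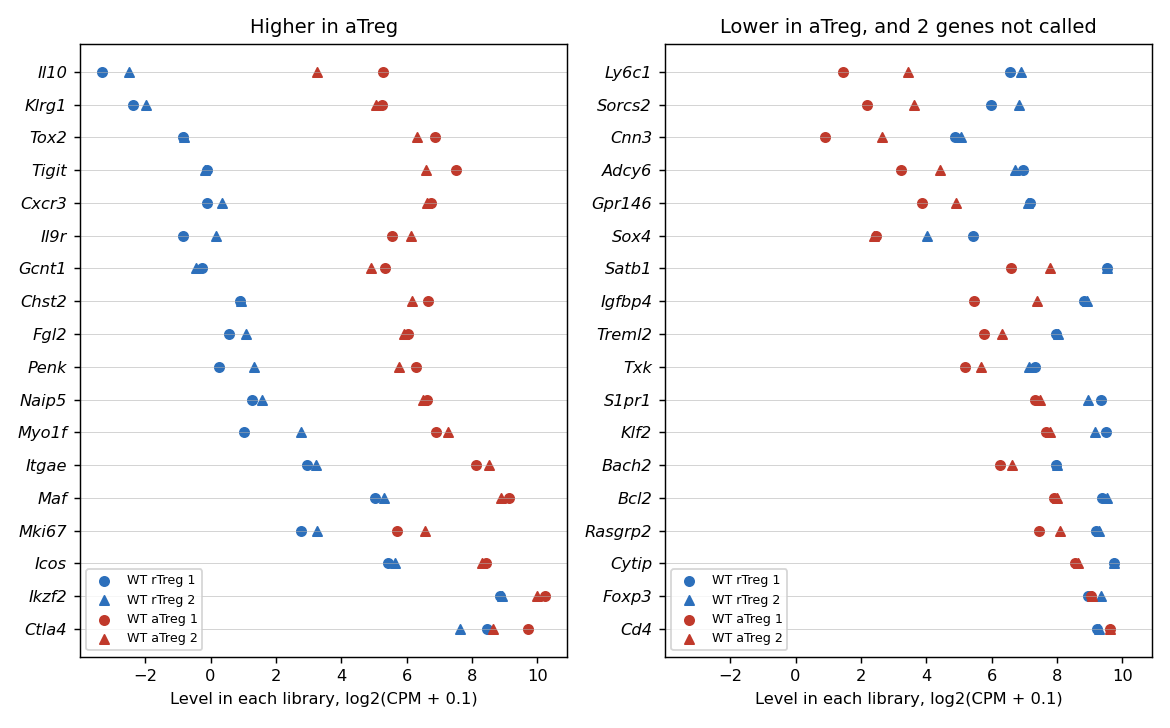
Level of 36 genes in each WT library as log2(CPM + 0.1) (horizontal axis, a log scale), with rTreg in blue, aTreg in red, replicate 1 as circles and replicate 2 as triangles. On the left are genes called higher, where red lies to the right of blue in every row; on the right are genes called lower, with Foxp3 and Cd4, which were not called, in the last rows.

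Inhibitory and costimulatory receptors rose in part. Of 32 immunoglobulin-family co-receptors tested, 14 were called higher (43.8%, against 9.5% of all genes tested) and 0 lower (against 2.83%). Their median log2 change was 0.97. limma-voom and DESeq2 also called 0 lower, and 1 member was below 0 at an unadjusted p under 0.05 in edgeR. Tigit, an inhibitory receptor for nectin-family ligands (ENSMUSG00000071552, chr16:43648867-43664146 in GRCm38), had 9 and 10 counts in the rTreg libraries and 1668 and 1507 in the aTreg libraries, or 0.829 and 0.786 CPM in rTreg and 183 and 96.6 CPM in aTreg cells (log2 change 7.38 ± 0.48 SE, adjusted p = 3.7e-05). Pdcd1, which encodes PD-1, went from 14.6 and 12.8 to 173 and 107 CPM (log2 change 3.34 ± 0.26 SE, adjusted p = 8.2e-05), and Icos from 42.6 and 49.3 to 341 and 318 CPM (log2 change 2.85 ± 0.11 SE, adjusted p = 6e-06). Neither overlapped between populations. Klrg1, a lectin-like receptor of terminally differentiated T cells, had 1 and 2 counts in the rTreg libraries and 348 and 524 in the aTreg libraries. Of 19 TNF receptor genes tested, 6 were called higher, among them Tnfrsf8, which encodes CD30 (log2 change 6.16 ± 0.31 SE, adjusted p = 1.4e-05), Tnfrsf1b, the TNF receptor 2 (log2 change 2.17 ± 0.12 SE, adjusted p = 2e-05), and Tnfrsf9, which encodes 4-1BB (log2 change 1.68 ± 0.20 SE, adjusted p = 0.00058); the count was 3 where both rTreg libraries of replicate 1 were left out. The 6 TNF receptor genes called higher are 31.6% of those tested, against 9.5% of all genes tested. Of 37 cytokine receptor genes tested, 11 (29.7%) were called higher and 1 (2.70%, against 2.83% of all genes) lower. Those that rose included receptors of the IL-1 family: the decoy receptor Il1r2 (log2 change 6.49 ± 0.52 SE, adjusted p = 9.6e-05), the IL-33 receptor Il1rl1 (log2 change 3.64 ± 0.15 SE, adjusted p = 6.5e-06) and the IL-18 receptor chains Il18rap (log2 change 4.70 ± 0.18 SE, adjusted p = 5.5e-06) and Il18r1 (log2 change 2.00 ± 0.16 SE, adjusted p = 0.0001). Il9r, the IL-9 receptor, went from 0.461 and 1.02 to 46.3 and 70.1 CPM (log2 change 6.25 ± 0.26 SE, adjusted p = 6.8e-06). The 1 that fell, named after its value was seen, was Ifngr2, the signaling chain of the interferon gamma receptor (log2 change -1.27 ± 0.13 SE, adjusted p = 0.00028).

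Of 36 genes for suppression and tissue repair, 29 were tested. Of these, 21 were called higher (72.4%, against 9.5% of all genes tested) and 0 lower (against 2.83%), with a median log2 change of 1.62. edgeR gave 0 members below 0 at an unadjusted p under 0.05, and limma-voom and DESeq2 called 0 lower. Il10 (ENSMUSG00000016529, chr1:131019845-131024974 in GRCm38) had 0 and 1 counts in the rTreg libraries and 352 and 148 in the aTreg libraries, or 38.6 and 9.49 CPM, so that both aTreg libraries lay above both rTreg libraries but differed from each other. Fgl2, a secreted suppressor, went from 1.38 and 2.04 to 65.1 and 60.2 CPM (log2 change 5.19 ± 0.25 SE, adjusted p = 1.2e-05). Penk, the precursor of enkephalin peptides, went from 1.11 and 2.44 to 78.3 and 54.7 CPM (log2 change 5.15 ± 0.25 SE, adjusted p = 1.2e-05). Gzmb, which encodes granzyme B, was low, at 0.368 and 0.314 CPM in rTreg and 7.79 and 12.1 CPM in aTreg cells (log2 change 4.84 ± 0.37 SE, adjusted p = 7.9e-05). The adenosine-producing enzyme Nt5e (CD73) was at 69.7 and 201 CPM in rTreg cells, a wide spread, and 333 and 436 CPM in aTreg cells (log2 change 1.62 ± 0.25 SE, adjusted p = 0.002), and its call was lost without the replicate block (adjusted p = 0.068). Tgfb1 was expressed at like levels in both, 249 and 226 CPM in rTreg and 284 and 249 CPM in aTreg cells, with overlapping ranges (log2 change 0.17 ± 0.07 SE, adjusted p = 0.12). Of 19 cytokine genes of helper T cells and others that were tested, 8 were called higher (42.1%, against 9.5% of all genes tested). They include Ifng, at 0.276 and 0.393 CPM in rTreg and 22.2 and 8.59 CPM in aTreg cells (log2 change 5.35 ± 0.40 SE, adjusted p = 6.9e-05), the growth factor Csf1 (log2 change 3.10 ± 0.22 SE, adjusted p = 5.2e-05) and Tnfsf11, which encodes RANKL (log2 change 2.94 ± 0.12 SE, adjusted p = 6e-06). Il21 and Il4 were close to the limit of detection: Il21 had 0 counts in both rTreg libraries and 16 and 14 in aTreg cells, and both calls were lost when WT rTreg replicate 1 was left out (adjusted p = 0.10 for Il21 and 0.073 for Il4). The Il21 call was also lost without WT rTreg replicate 2 (adjusted p = 0.19) and without WT aTreg replicate 1 (adjusted p = 0.076).

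Genes of mitosis and, in part, of DNA replication rose. G1 regulators were called at shares near those of all genes, and 0 of the few histone genes tested were called. Of 89 mitosis genes tested, 50 were called higher (56.2%, against 9.5% of all genes tested) and 0 lower (against 2.83%). Their median log2 change was 1.55. Of 66 genes of DNA replication and S phase, 19 were called higher (28.8%) and 0 lower, with a median of 0.49. limma-voom and DESeq2 called 0 lower in either list, with 1 and 2 members below 0 at an unadjusted p under 0.05 in edgeR. Mki67, the proliferation marker Ki-67, was at 6.72 and 9.43 CPM in rTreg and 52.4 and 94.8 CPM in aTreg cells (log2 change 3.17 ± 0.11 SE, adjusted p = 4.5e-06). Kif11, a spindle motor, went from 0.553 and 1.73 to 6.58 and 15.1 CPM (log2 change 3.22 ± 0.27 SE, adjusted p = 0.00012), and Ccnb1, the mitotic cyclin B1, from 0.368 and 0.157 to 2.96 and 4.36 CPM (log2 change 3.81 ± 0.45 SE, adjusted p = 0.0006). Replicate 2 was the higher aTreg library for each of these, and without WT rTreg replicate 2 the mitosis count was 32. Some abundant replication factors were not called: Pcna, at 152 and 157 CPM in rTreg and 151 and 168 CPM in aTreg cells, and Mcm2, at 95.7 and 88.4 CPM in rTreg and 92.2 and 97.3 CPM in aTreg cells, overlapped between populations (log2 change 0.05 ± 0.07 SE, adjusted p = 0.66; log2 change 0.04 ± 0.08 SE, adjusted p = 0.7). Of 58 replication-dependent histone genes, 13 were tested and 0 were called by edgeR, limma-voom or DESeq2. Their median log2 change was 0.0032, with 0 higher and 1 lower at an unadjusted p under 0.05 in edgeR. All 58 together summed to 35.2 and 43.6 CPM in rTreg and 35.7 and 48.3 CPM in aTreg cells. At such low levels a change could be missed. Of 23 G1 cyclins and inhibitors of cell cycle kinases, 3 rose and 1 fell, with a median of -0.01. Among the inhibitors, Cdkn2c rose (log2 change 2.70 ± 0.26 SE, adjusted p = 0.00022) and Cdkn2d fell (log2 change -1.13 ± 0.13 SE, adjusted p = 0.00059), and the Cdkn2d decrease was under 2-fold without WT aTreg replicate 1 (log2 change -0.91). Ccnd2, the G1 cyclin D2, was high in both and not called (log2 change -0.47 ± 0.05 SE, adjusted p = 0.00032).

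The promoters of these cell cycle genes are shown because many of the mitosis genes rose together. They run from 250 bases before to 50 after the start and come from RefSeq on GRCm38.p6. The cell cycle homology region (CHR) was searched as TTTGAA on both strands, and the E2F site as TTTCGCGC or TTTGGCGC on both strands, and matches of different searches may share bases. Of 72 tested mitosis genes with a promoter entry, 66.7% hold the CHR letters, against 14.6% of 9699 tested genes with an entry. Of 52 tested S phase genes, 26.9% hold the E2F letters, against 1.80% of the 9699. The share with the CHR letters was 69.0% among the 42 called mitosis genes with an entry, close to that of the whole mitosis list. Such a match is a description and not a binding site. Printed are the 3 called mitosis genes with a CHR match and the 2 called S phase genes with an E2F match that had the highest aTreg level, chosen after values were seen, with the matched letters in capitals. Mki67 is at chr7:135716330-135716629 (minus strand), Top2a at chr11:99024140-99024439 (minus strand), Racgap1 at chr15:99651607-99651906 (minus strand), Uhrf1 at chr17:56304063-56304362 (plus strand) and Pola1 at chrX:93632106-93632405 (minus strand).
Mki67: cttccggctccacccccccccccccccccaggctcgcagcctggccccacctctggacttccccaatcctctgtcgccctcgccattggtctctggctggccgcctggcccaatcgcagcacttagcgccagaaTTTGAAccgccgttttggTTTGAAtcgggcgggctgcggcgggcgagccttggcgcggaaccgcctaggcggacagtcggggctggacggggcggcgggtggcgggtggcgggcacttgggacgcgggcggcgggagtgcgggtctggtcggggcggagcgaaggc
Top2a: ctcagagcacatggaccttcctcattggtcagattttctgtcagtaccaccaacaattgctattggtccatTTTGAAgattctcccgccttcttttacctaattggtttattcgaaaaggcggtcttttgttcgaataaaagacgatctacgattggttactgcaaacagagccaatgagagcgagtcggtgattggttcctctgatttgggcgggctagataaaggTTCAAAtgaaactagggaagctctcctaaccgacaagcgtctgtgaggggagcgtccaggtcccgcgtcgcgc
Racgap1: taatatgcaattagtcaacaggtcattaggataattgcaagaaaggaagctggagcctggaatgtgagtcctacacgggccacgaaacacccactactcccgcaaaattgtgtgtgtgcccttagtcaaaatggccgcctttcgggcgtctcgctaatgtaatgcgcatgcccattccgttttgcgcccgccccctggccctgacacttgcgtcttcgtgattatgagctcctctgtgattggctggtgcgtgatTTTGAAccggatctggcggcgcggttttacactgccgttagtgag
Uhrf1: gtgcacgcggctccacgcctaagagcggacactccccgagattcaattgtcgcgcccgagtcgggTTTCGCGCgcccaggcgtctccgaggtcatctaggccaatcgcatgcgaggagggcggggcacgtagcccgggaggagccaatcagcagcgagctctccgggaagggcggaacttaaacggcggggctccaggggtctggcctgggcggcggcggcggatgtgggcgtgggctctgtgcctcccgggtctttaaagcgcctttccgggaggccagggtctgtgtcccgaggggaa
Pola1: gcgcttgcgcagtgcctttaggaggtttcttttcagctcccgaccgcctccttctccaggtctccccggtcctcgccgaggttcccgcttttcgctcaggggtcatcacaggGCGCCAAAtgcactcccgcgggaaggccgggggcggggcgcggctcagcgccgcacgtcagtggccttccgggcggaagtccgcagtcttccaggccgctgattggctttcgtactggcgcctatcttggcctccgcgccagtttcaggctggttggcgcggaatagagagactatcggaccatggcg

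Top2a, which untangles replicated DNA, was at 6.63 and 9.35 CPM in rTreg and 31.3 and 58.1 CPM in aTreg cells (log2 change 2.47 ± 0.14 SE, adjusted p = 2.2e-05). Racgap1, which acts in cell division, was at 6.35 and 9.51 CPM in rTreg and 32.9 and 42.2 CPM in aTreg cells (log2 change 2.24 ± 0.12 SE, adjusted p = 1.6e-05). Uhrf1, which maintains DNA methylation on new strands, was at 8.66 and 10.7 CPM in rTreg and 21.5 and 34.2 CPM in aTreg cells (log2 change 1.52 ± 0.14 SE, adjusted p = 0.0002), and Pola1, the polymerase alpha subunit, at 7.09 and 8.33 CPM in rTreg and 15.1 and 18.3 CPM in aTreg cells (log2 change 1.12 ± 0.16 SE, adjusted p = 0.0016). None of these 4 overlapped between populations, as held for 56.9% of all genes tested.

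Of 33 tested genes of antigen receptor response, 7 were called higher (21.2%, against 9.5% of all genes tested) and 0 lower (against 2.83%). Their median log2 change was 0.43. limma-voom and DESeq2 called 0 lower, and 4 members were below 0 at an unadjusted p under 0.05 in edgeR. Nfatc1, a calcium-driven factor, went from 186 and 196 to 574 and 478 CPM (log2 change 1.46 ± 0.09 SE, adjusted p = 3.5e-05), and Egr2 from 29.9 and 33.3 to 81.3 and 76.4 CPM (log2 change 1.32 ± 0.11 SE, adjusted p = 0.00012). Replicates differed widely for some members of this list. Nr4a2 was at 39.5 and 3.38 CPM in rTreg and 141 and 16.6 CPM in aTreg cells (log2 change 1.94 ± 0.22 SE, adjusted p = 0.00054), and Fosb at 172 and 57.3 CPM in rTreg and 459 and 176 CPM in aTreg cells (log2 change 1.53 ± 0.12 SE, adjusted p = 7.9e-05). Without the replicate block these calls were lost (adjusted p = 0.48 for Nr4a2 and 0.32 for Fosb), and the list then held 3 calls. Junb and Tnfaip3 had overlapping ranges and were not called, with log2 changes of 0.47 and 0.43.

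Genes of cell shape and motility rose in part. Of 36 tested, 14 were called higher (38.9%, against 9.5% of all genes tested) and 0 lower (against 2.83%), with a median log2 change of 0.28. limma-voom and DESeq2 called 0 lower, and 7 members were below 0 at an unadjusted p under 0.05 in edgeR. Ahnak, a giant scaffold protein, had the highest mean CPM of all genes called higher and went from 319 and 399 to 1356 and 1762 CPM (log2 change 2.11 ± 0.06 SE, adjusted p = 2.6e-06). The calcium-binding S100a6 (log2 change 4.45 ± 0.30 SE, adjusted p = 4.5e-05) and S100a11 (log2 change 3.15 ± 0.16 SE, adjusted p = 1.4e-05) rose. Myo1f, a membrane-linked myosin, rose (log2 change 4.99 ± 0.23 SE, adjusted p = 9.7e-06), while Myo6, a myosin outside this list that walks in the opposite direction on actin, fell from 36.5 and 64.8 to 6.8 and 11.2 CPM (log2 change -2.45 ± 0.35 SE, adjusted p = 0.0014). Actb and Flna, the abundant actin and filamin, were not called, with log2 changes of -0.13 and -0.36.

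Genes of cytosolic danger sensing were taken from a list drawn up after values were seen, so their count cannot show that they form a group. Of 18 inflammasome genes, 13 were tested. Of these, 9 were called higher (69.2%, against 9.5% of all genes tested) and 0 lower (against 2.83%), with a median log2 change of 2.43. limma-voom and DESeq2 called 0 lower, and 0 were below 0 at an unadjusted p under 0.05 in edgeR. Naip5 went from 2.3 and 2.91 to 98.2 and 90.7 CPM (log2 change 5.16 ± 0.23 SE, adjusted p = 8.6e-06) and Naip6 from 2.12 and 3.38 to 65.2 and 64.7 CPM (log2 change 4.54 ± 0.19 SE, adjusted p = 6.8e-06); they sense bacterial flagellin, and as near-identical copies their counts may be shared between them. Casp1 (log2 change 2.15 ± 0.21 SE, adjusted p = 0.00025) and Casp4 (log2 change 2.45 ± 0.16 SE, adjusted p = 4.2e-05), the inflammatory caspases, rose. Gsdmd, the pore protein they cut, and the adaptor Pycard were at like levels, with log2 changes of 0.04 and -0.07 and overlapping ranges. In the BCL2 family, 6 of 27 members rose and 2 fell. The shares were 22.2% and 7.41%, against 9.5% and 2.83% of all genes tested. The survival gene Bcl2 fell from 661 and 738 to 239 and 257 CPM (log2 change -1.50 ± 0.07 SE, adjusted p = 1.2e-05), and the death gene Bcl2l11, which encodes BIM, fell from 170.2 and 194 to 64.2 and 63.3 CPM (log2 change -1.52 ± 0.10 SE, adjusted p = 3.3e-05). Pmaip1, which encodes NOXA, rose (log2 change 1.80 ± 0.23 SE, adjusted p = 0.00098), and Mcl1 was not called (log2 change -0.35 ± 0.06 SE, adjusted p = 0.0026).

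Of 28 tested genes of lymph node homing and the naive state, 13 were called lower (46.4%, against 2.83% of all genes tested) and 0 higher (against 9.5%). Their median log2 change was -0.87. limma-voom and DESeq2 called 0 higher, and 2 members were above 0 at an unadjusted p under 0.05 in edgeR. The list includes a gene of the sort gate. S1pr1, the lymph node egress receptor (ENSMUSG00000045092, chr3:115710433-115715072 in GRCm38), fell from 651 and 495 to 159.97 and 179 CPM (log2 change -1.74 ± 0.14 SE, adjusted p = 8.6e-05). Ly6c1, a surface glycoprotein (ENSMUSG00000079018, chr15:75044018-75048830 in GRCm38), fell from 94.7 and 118 to 2.63 and 10.8 CPM (log2 change -3.89 ± 0.34 SE, adjusted p = 0.00014). Treml2 (log2 change -1.97 ± 0.11 SE, adjusted p = 2e-05) and the kinase gene Txk (log2 change -1.77 ± 0.17 SE, adjusted p = 0.00022) fell with no overlap between populations. Igfbp4 was at 453 and 478 CPM in rTreg cells and at 43.7 and 167 CPM in aTreg cells, where replicate 1 was the lower (log2 change -2.18 ± 0.53 SE, adjusted p = 0.017), and the call was lost when either WT rTreg library was left out (adjusted p = 0.064 and 0.079). Ccr7, the lymph node entry receptor, changed by less than 2-fold (log2 change -0.79 ± 0.10 SE, adjusted p = 0.0008). Il7r, the receptor of the survival cytokine IL-7, was higher in replicate 2 of both populations and was not called (log2 change 0.63 ± 0.19 SE, adjusted p = 0.038).

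Of 27 tested transcription factors of the naive and resting state, 6 were called lower (22.2%, against 2.83% of all genes tested) and 0 higher (against 9.5%). This list too was chosen with earlier results of these data known, and its median log2 change was -0.45. limma-voom and DESeq2 called 0 higher, and 4 were above 0 at an unadjusted p under 0.05 in edgeR. The 6 were Satb1, Klf2, Bach2, Lef1, Klf7 and Sox4. Satb1, a chromatin organizer (ENSMUSG00000023927, chr17:51736187-51833290 in GRCm38), was at 731 and 745 CPM in rTreg cells and 96 and 219 CPM in aTreg cells (log2 change -2.26 ± 0.29 SE, adjusted p = 0.00096). Klf2, which drives S1pr1, was at 724 and 567 CPM in rTreg and 200.5 and 219 CPM in aTreg cells (log2 change -1.61 ± 0.21 SE, adjusted p = 0.00099). Bach2, a repressor of effector genes, was at 249 and 256 CPM in rTreg and 76.4 and 98.3 CPM in aTreg cells (log2 change -1.53 ± 0.13 SE, adjusted p = 0.00014). These 3 did not overlap between populations. Lef1 was close to the threshold (log2 change -1.04 ± 0.15 SE, adjusted p = 0.0016) and fell under 2-fold when either replicate 1 library was left out. Its relative Tcf7 was abundant in both, at 991 and 904 CPM in rTreg and 694 and 841 CPM in aTreg cells (log2 change -0.30 ± 0.10 SE, adjusted p = 0.046), and Ets1, Bcl11b and Ikzf1 were not called, with log2 changes of -0.17, -0.25 and -0.60.

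Other genes called lower have varied roles. Adcy6, an adenylyl cyclase that makes cyclic AMP, fell from 125 and 104 to 9.22 and 21.2 CPM (log2 change -2.82 ± 0.31 SE, adjusted p = 0.00045), and Gpr146, an orphan receptor, from 145 and 137 to 14.6 and 29.8 CPM (log2 change -2.63 ± 0.24 SE, adjusted p = 0.0002). Rasgrp2, which activates the small GTPase Rap1, fell from 579.8 and 622 to 173 and 275 CPM (log2 change -1.44 ± 0.14 SE, adjusted p = 0.00026), and Rasa3, which switches off Ras and Rap, from 529 and 582 to 215 and 278 CPM (log2 change -1.18 ± 0.10 SE, adjusted p = 0.00011). Of 31 Ras and Rap regulators tested, a list drawn up after values were seen, 5 fell and 3 rose. The shares were 16.1% and 9.68%, against 2.83% and 9.5% of all genes tested. Of 27 genes of Wnt and TGF-beta signaling, 3 fell and 3 rose (11.1% each, against 2.83% and 9.5% of all genes tested). Acvr1c, a type I receptor (log2 change -4.40 ± 0.56 SE, adjusted p = 0.00089), and Lrp5, a Wnt co-receptor (log2 change -2.28 ± 0.21 SE, adjusted p = 0.00019), fell along with Lef1. Sorcs2, a sorting receptor, fell from 62.6 and 114 to 4.5 and 12.1 CPM (log2 change -3.35 ± 0.34 SE, adjusted p = 0.00029), and Cnn3, an actin-binding calponin, from 29.3 and 33.2 to 1.76 and 6.09 CPM (log2 change -2.92 ± 0.31 SE, adjusted p = 0.00038). Both were still present in aTreg replicate 2 at higher levels than in aTreg replicate 1. The called decreases with the highest mean CPM included Kbtbd11, Cytip, Txnip and Fam65b. Cytip, which regulates integrin adhesion, fell from 863 and 849 to 376 and 400.1 CPM (log2 change -1.14 ± 0.05 SE, adjusted p = 1.2e-05), and Txnip, which limits glucose uptake, from 681 and 844 to 280.3 and 451 CPM (log2 change -1.09 ± 0.11 SE, adjusted p = 0.00025). Txnip and Fam65b were under 2-fold when either WT replicate 1 library was left out, and the Kbtbd11 call was lost without WT rTreg replicate 2 (adjusted p = 0.077), without WT aTreg replicate 1 and without the replicate block (adjusted p = 0.12).

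Of 48 interferon-stimulated genes tested, 6 were called lower and 1 higher, with a median log2 change of -0.23. The share called lower was 12.5%, against 2.83% of all genes tested, and the share called higher 2.08%, against 9.5%. At an unadjusted p under 0.05 in edgeR, 20 were lower and 6 higher. The genes called lower were Oas2, Oasl1, Oasl2, Usp18, Ifi206 and Ifi208. Oas2, which makes the activator of an RNA-degrading enzyme, fell from 33.5 and 37.7 to 5.71 and 12.6 CPM (log2 change -1.97 ± 0.19 SE, adjusted p = 0.00026), and Usp18, which damps interferon signaling, from 51 and 51.1 to 23.6 and 23.1 CPM (log2 change -1.14 ± 0.15 SE, adjusted p = 0.0011). Oas1a was the one called higher (log2 change 1.26 ± 0.23 SE, adjusted p = 0.0049). Ifi206 has near-identical relatives whose reads may be shared, and its call (log2 change -1.04 ± 0.33 SE, adjusted p = 0.048) was lost under 8 alternatives. Oasl2 and Ifi208 lost theirs under 6 each, and Usp18 and Oas1a under 3 each. Without the replicate block the adjusted p was 0.054 for Oas1a and 0.087 for Ifi208. Among single libraries, Oas1a was under 2-fold without WT rTreg replicate 2 (0.91 on the log2 scale), Ifi208 without WT rTreg replicate 1 (-0.70), Usp18 without WT aTreg replicate 2 (-0.99) and Oasl2 without WT rTreg replicate 1 (-0.83) or WT aTreg replicate 2 (-0.73). Where both rTreg libraries of replicate 1 were left out, 3 of the list were called lower. A list by gene family, drawn up later, held interferon-inducible GTPase, p200, Ifit and Oas genes. Of its 43 tested members, 10 were called lower (23.3%) and 5 higher (11.6%), with a median log2 change of -0.29. The low share of increases thus holds for the first list only.

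Genes of oxidative phosphorylation, the proteasome and cytosolic ribosomes gave no calls, and glycolysis genes were called higher at about the share of all genes. Of 82 nuclear genes of oxidative phosphorylation, 0 were called by edgeR, limma-voom or DESeq2, with a median log2 change of 0.00079; at an unadjusted p under 0.05, 3 were higher and 7 lower. For 37 proteasome subunits the same tools called 0, with 2 higher and 0 lower at that unadjusted p. Of 28 glycolysis genes 3 rose (10.7%, against 9.5% of all genes tested). Among them was Tpi1 at the edge of the threshold (log2 change 1.00 ± 0.07 SE, adjusted p = 6.6e-05). The Tpi1 change was under 2-fold without WT rTreg replicate 2 (0.95 on the log2 scale) or WT aTreg replicate 1 (0.96). Eno1 (log2 change -0.49 ± 0.06 SE, adjusted p = 0.00067) and Ldha (log2 change -0.27 ± 0.05 SE, adjusted p = 0.0063) were not called. Most genes of cytosolic ribosomal proteins were lower by a small amount. Of 84 tested, 81 lay below 0 and 3 above, with a median log2 change of -0.34. In edgeR, 67 were lower and 0 higher at an adjusted p under 0.05. None was called by edgeR, limma-voom or DESeq2. The log2 changes ran from -0.87 to 1.53, so that the largest went up. Over all genes, 13.6% were lower and 18.2% higher at that adjusted p alone. The abundant Rplp0 was at 1904 and 1880.1 CPM in rTreg and 1452 and 1389 CPM in aTreg cells (log2 change -0.41 ± 0.06 SE, adjusted p = 0.0014).

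**Figure D4:**
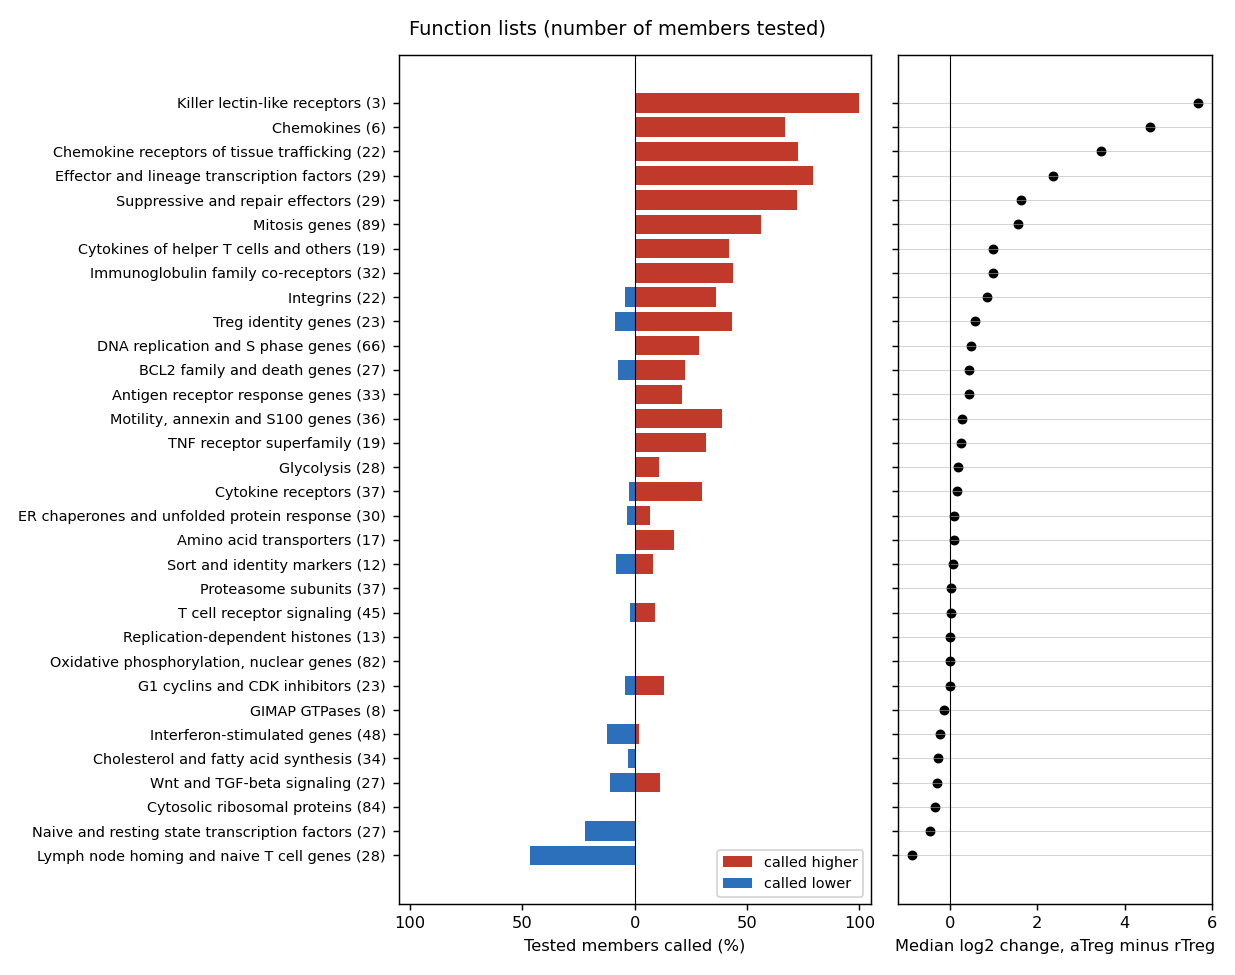
For each of 32 lists of genes by function, with the number of tested members in parentheses, the left panel shows the percentage of tested members called higher (red, to the right) and lower (blue, to the left) in aTreg against rTreg cells, and the right panel the median log2 change. The highest fitted medians are those of killer lectin-like receptors (3 tested of 21) and chemokines (6 tested of 27), at 5.68 and 4.56. Few of their members passed the filter, which a gene expressed in aTreg cells alone can pass, so these 2 medians carry no ranking. With the chemokine gene that had no rTreg count set at its bound, the chemokine median was 3.04. Tissue trafficking receptors, effector factors and suppressive effectors lie at 3.45, 2.35 and 1.62. Lymph node homing and naive T cell genes have the lowest median, at -0.87.

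Markers of other cell types were measured alongside. The summed level of 15 B cell markers was 175 and 229 CPM in rTreg and 655 and 672 CPM in aTreg cells, of which most is Ighm, the immunoglobulin mu chain, at 164 and 218 CPM in rTreg and 604 and 626 CPM in aTreg cells. Cd22 (log2 change 5.75 ± 0.26 SE, adjusted p = 9.2e-06), Ighd (log2 change 3.63 ± 0.26 SE, adjusted p = 5.7e-05) and Cd79b (log2 change 1.70 ± 0.17 SE, adjusted p = 0.00027) rose as well. Of 7 B cell markers tested, 5 were called higher (71.4%, against 9.5% of all genes tested) and 0 lower. Of 28 immunoglobulin gene segments tested, a list drawn up later, 8 rose (28.6%) and 1 fell (3.57%, against 2.83%). Other B cell markers had few counts per WT library: 0 to 4 for Ms4a1, 1 to 10 for Cr2 and 1 to 4 for Fcer2a. Dendritic cell markers summed to 12.3 and 9.11 CPM in rTreg and 56.9 and 47.2 CPM in aTreg cells, mostly Cd74, the MHC class II invariant chain (log2 change 2.54 ± 0.29 SE, adjusted p = 0.00051). Markers of monocytes and macrophages summed to between 8.17 and 8.40 CPM in the WT libraries. Of the 3 tested, 0 were called by edgeR, limma-voom or DESeq2. Of these, 2 lay above 0 and 1 below, with log2 changes from -0.65 to 1.56, and 1 was lower at an unadjusted p under 0.05 in edgeR. Erythroid and platelet markers summed to 71.3 and 62.1 CPM in rTreg and 23.8 and 19.6 CPM in aTreg cells, mostly Gata1 (log2 change -2.12 ± 0.11 SE, adjusted p = 1.4e-05), and stromal and endothelial markers to 274 and 261 against 134 and 128 CPM, mostly Pecam1 (log2 change -1.10 ± 0.06 SE, adjusted p = 1.8e-05). Of the 4 stromal and endothelial markers tested, 2 were called lower and 2 higher, with a median log2 change of 1.16. Col1a1, a collagen chain of stromal cells, had 3 and 5 counts in the rTreg libraries and 36 and 56 in the aTreg libraries (log2 change 3.43 ± 0.40 SE, adjusted p = 0.00057). The part of other cells in the genes described above was not tested.

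In Foxp1 cKO mice the same comparison called 1643 genes higher (11.3%) and 639 lower (4.39%). Of the WT calls, 1186 of the 1382 higher and 293 of the 411 lower were also called in Foxp1 cKO cells, which is 85.8% and 71.3% of the WT calls and 72.2% and 45.9% of the Foxp1 cKO calls. Of 25 eye genes tested, 14 were called lower in WT and 20 in Foxp1 cKO cells, and the numbers of decreases include them. A direct test of the genotype difference gave 48 genes (0.33%) at an adjusted p under 0.05, of which 17 were called higher and 4 lower in WT cells. Ahnak rose by 2.11 ± 0.06 on the log2 scale in WT cells and by 4.38 ± 0.07 in Foxp1 cKO cells, and Il1rl1 by 3.64 ± 0.15 and 6.48 ± 0.19. The proliferation genes Mki67 and Top2a rose more in WT cells, by 3.17 ± 0.11 and 2.47 ± 0.14 against 1.95 ± 0.09 and 0.86 ± 0.11. Cd55, a brake on complement, fell in WT cells (log2 change -1.32 ± 0.16 SE, adjusted p = 0.0006; adjusted p = 0.071 without the block) and had a log2 change of 0.90 ± 0.18 in Foxp1 cKO cells. The count of 48 rests on the replicate block and on single libraries: without the block it was 0 by edgeR, with 884 genes at an unadjusted p under 0.05, and without WT rTreg replicate 2 it was 2. It was 1 where both rTreg libraries of replicate 1 were left out.

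**Figure D5:**
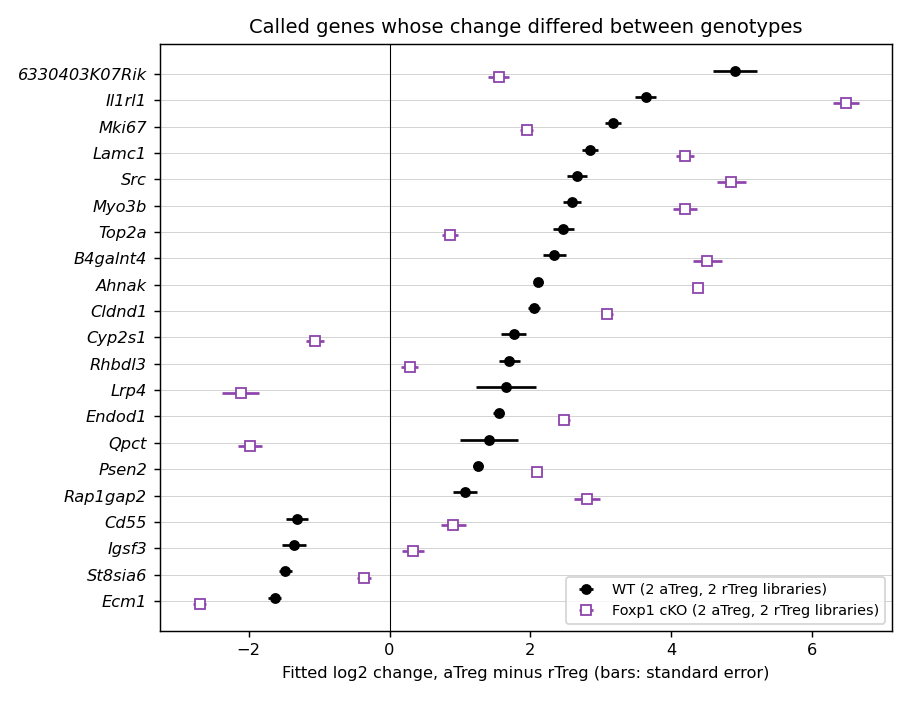
Fitted log2 change of aTreg against rTreg cells (horizontal axis, bars are the SE worked back from the test) in WT (black circles) and Foxp1 cKO cells (open purple squares) for the 21 genes called in WT cells whose change differed between the genotypes. Cyp2s1, Lrp4 and Qpct lie above 0 in WT and below 0 in Foxp1 cKO cells, Cd55 and Igsf3 the reverse, and the others lie on the same side of 0 in both.

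The number of decreases moved by more than 1.5 times with the model and with single libraries, and that of the increases did not in the same settings. Without the replicate block 1097 genes were called higher and 245 lower, and with DESeq2 1178 and 272. Without WT rTreg replicate 1 there were 1133 called higher and 249 lower, and without WT aTreg replicate 1 there were 1155 and 237.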

How the data were processed

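RNA was sequenced from sorted WT rTreg, WT aTreg, Foxp1 cKO rTreg and Foxp1 cKO aTreg cells, with 2 libraries in each of 4 groups. Per the study's methods, the authors checked and trimmed paired-end reads, removed duplicates with Picard and obtained the deposited counts per gene with htseq-count. The submitters' processing notes name HISAT2 2.0.5, HTSeq and mm10. The deposited FPKM values equal the authors' counts divided by library total and gene length, with a relative spread of at most 5.4e-04, and served only in alternatives. The strand setting of the counting was not given in the sources used here, so overlapping and antisense genes cannot be told apart.

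Counts were tested with edgeR 4.0.16 (glmQLFit, glmQLFTest, TMM, filterByExpr with a minimum count of 10) in R 4.3.3, using all 8 libraries, group means and the replicate number as a block. limma 3.58.1 and DESeq2 1.42.0 served as alternatives. The block follows the study's methods, which state a paired analysis. Deviations of same-numbered libraries from their group means correlated across genes at 0.60 in WT and 0.55 in Foxp1 cKO. The replicate numbers also separate the sexes: Xist had 0 to 3 counts in replicate 1 and 15098 to 21822 in replicate 2. No 2 libraries held identical values, and replicates differed beyond counting noise. On simulated counts the fit was checked with known changes. The floor of 3 counts covers counting error only.

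Of the gene identifiers, 27479 were found in GENCODE M21 of GRCm38, which gave the coordinates. Promoter sequences are from RefSeq on GRCm38.p6. The members and gene lists were chosen with earlier results of these data known, and 25 of the 57 lists are of other cell types or were added later. Named genes are the sort and identity markers and Foxp1, the 15 largest called increases and decreases with at least 10 CPM and 2-fold in both pairs (predicted genes and receptor segments aside), up to 8 called and 4 uncalled members of each list, the 5 called genes with the highest level in each direction and the 5 with the smallest adjusted p for the genotype difference; some genes that fulfil this rule are not reported here. Alternatives covered the block, test, normalization, filter, gene length, libraries and FPKM scale, and leaving out both rTreg libraries of replicate 1 was chosen after seeing the data.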

Additional observations from a re-analysis of the deposited data

Results flagged for a closer look

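The change from rTreg to aTreg cells differed between WT and Foxp1 cKO for 48 genes (edgeR quasi-likelihood test of the interaction, Benjamini-Hochberg adjusted p under 0.05). Among genes named in the report, the WT minus Foxp1 cKO difference of the log2 change was -2.2676 for Ahnak, -2.8440 for Il1rl1 and -1.0430 for Cldnd1, a membrane protein, so that these rose less in WT cells. It was 1.2191 for Mki67, 1.6121 for Top2a and 2.8185 for Cyp2s1, which rose more in WT cells, and Cyp2s1 was below 0 in Foxp1 cKO cells. For genes lower in aTreg cells it was 1.0660 for Ecm1, 1.0818 for Ccr7 and 0.9155 for Foxp1, each with the smaller decrease in WT cells, and -2.2247 for Cd55, which fell in WT cells and had a positive change in Foxp1 cKO cells. Foxp1 is the deleted gene, and the source of its reads in Foxp1 cKO cells was not tested. With 2 libraries a group, no library could be examined as an outlier within its group.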

How the results depend on the processing

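With 2 libraries a group, the counts of calls moved with the model. On the log2(FPKM + 1) scale with a mean FPKM of at least 1, 629 genes were called higher and 158 lower; with 0.1 in place of 1 added, 811 and 216; with no filter, 632 and 140. Without the replicate block 245 were called lower, with DESeq2 272, and with both rTreg libraries of replicate 1 left out 188. Leaving out 1 WT library at a time gave 1078 to 1261 genes higher and 237 to 420 lower. The number of genes that differed between genotypes was 48 with the block and 0 without it (884 at an unadjusted p under 0.05 in edgeR), 272 with DESeq2, 573 with no filter, 1 with both rTreg libraries of replicate 1 left out and 2 to 167 with 1 WT library left out; the cause was not tested. The other alternatives stayed within 1.5 times of each count. Eye genes reversed. With 1 WT library left out, the log2 change ranged from -3.81 to 0.67 for Gnat1, -4.61 to 3.99 for Prph2 and -8.78 to 0.12 for Rbp3. It was 0.39 for Gnat1 with both rTreg libraries of replicate 1 left out and 0.22 for Prph2 with DESeq2. Of the 210 genes examined, 17 lost their call without the replicate block and 26 with log2(FPKM + 1) and no filter. Where 1 library was left out of a group of 2, the lone library is assumed to vary like the other groups.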
